A study of Mus musculus with 10 samples.

Results

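Car3, Adipoq, Cidea, Cidec, Plin1, Fabp4 and Cfd are 7 mouse genes of the fat cell, of 20009 genes with counts, chosen by name and read as the sum of each gene's transcripts in every library. The muscles were soleus, the slow calf muscle, and the fast tibialis anterior of the front of the leg (TA). There were 5 RNA sequencing libraries of each muscle, 3 from males and 2 from females, and all mice were wild type. Strain and age were not among the labels. The deposited names give the soleus and TA libraries of 1 number the same animal code, so that 5 mice are taken to have given both muscles. Each library was made from bulk muscle tissue, so fewer cells of a type and less RNA per cell cannot be told apart in any value below.

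Fat cells store triglyceride in a droplet under a coat of perilipin 1 (Plin1), and the CIDE proteins Cidea and Cidec, at the contacts between droplets, make them grow. Fabp4 carries fatty acids through the cytoplasm of fat cells and of capillary endothelium, and fat cells secrete adiponectin (Adipoq) and the complement protease adipsin (Cfd). Car3, a carbonic anhydrase of low activity, is abundant both in fat cells and in slow muscle fibers, so its RNA does not by itself name a cell. Cidea is best known from the brown fat of mice.

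Libraries held between 726075 and 961237 counts each. The gene model Gm20594 alone held 22.1% to 28.4% of them in soleus and 17.2% to 20.9% in TA. CPM values and ratios below divide by totals that include it. The muscles were as labelled, since 7 of 7 slow fiber genes were higher in soleus and 7 of 7 fast fiber genes in TA. Soleus female 2 stood apart from the other libraries. It listed 22827 transcripts, against 14971 to 16552 in the other 9 libraries. It had 92 counts of the Y-linked gene Kdm5d, against 6 to 11 in the other female libraries and 9 to 23 in the male libraries. Counts of Kdm5d thus did not separate the sexes here. The Y-linked genes Ddx3y and Eif2s3y had 0 or 1 count in each female library. Xist was at 0 in all 10. Results are therefore given with and without soleus female 2 where it moved them.

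Car3 lies at 3:14863512-14872523 on the plus strand of GRCm38, beside Car2, which starts 13749 bases downstream. Of its counts 99.1% were on the protein-coding transcript and 274 on a transcript that runs out of exon 2 into intron 2. The 60 bases across that boundary separate the annotated transcripts in the soleus female 2 result below. They are from the GENCODE M21 transcripts, with the end of exon 2 (chr3:14864418-14864447) in lower case. The capitals mark the start of exon 3 (chr3:14866803-14866832) or of intron 2 (chr3:14864448-14864477).
Car3 spliced: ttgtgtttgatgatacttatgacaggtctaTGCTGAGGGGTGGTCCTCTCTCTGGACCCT
Car3 retained intron: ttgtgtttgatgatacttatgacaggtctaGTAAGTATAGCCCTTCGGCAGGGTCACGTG

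For 4 of the 7 genes (Adipoq, Cidec, Plin1 and Cfd) a promoter window of 300 bases, 250 before and 50 after the start, was taken from RefSeq (GRCm38.p6). For Car3 and Fabp4 no window was found. Cidea was left out of the search by choice, not for want of a match in its window. The promoters of these genes were therefore not tested. Adipoq and Cfd are shown because they had the same totals in both muscles, 33 counts in soleus and 8 in TA. The windows are chr16:23146286-23146585 and chr10:79890603-79890902, both on the plus strand, and capitals mark CCAAT on either strand (ATTGG on the other).
Adipoq promoter: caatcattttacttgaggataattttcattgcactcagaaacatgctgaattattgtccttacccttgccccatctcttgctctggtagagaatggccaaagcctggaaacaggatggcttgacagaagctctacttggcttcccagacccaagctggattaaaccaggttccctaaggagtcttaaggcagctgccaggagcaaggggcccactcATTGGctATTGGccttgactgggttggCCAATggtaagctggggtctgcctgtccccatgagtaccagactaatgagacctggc
Cfd promoter: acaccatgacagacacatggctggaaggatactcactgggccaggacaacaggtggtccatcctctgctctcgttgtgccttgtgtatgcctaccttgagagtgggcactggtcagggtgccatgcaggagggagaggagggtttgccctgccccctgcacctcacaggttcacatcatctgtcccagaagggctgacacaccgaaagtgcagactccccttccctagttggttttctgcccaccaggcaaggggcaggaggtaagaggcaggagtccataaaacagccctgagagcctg
Adipoq had 3 such matches, at 34, 27 and 7 bases before the start, and the Cfd window had none. CCAAT was in 37.4% of 32851 RefSeq windows of this length. None of the windows of these 4 genes held AGGTCA (a nuclear receptor half-site, in 16.3% of all windows), TTGCNNCAA (a C/EBP palindrome, in 2.08%) or TATAAA (in 13.6%), searched on both strands. No match says only that these letters are not in the window.

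Cidea, Adipoq, Cfd, Plin1 and Car3 had more counts in soleus in relation to depth in each of the 5 mice, and Fabp4 had nearly the same level in both muscles. In the edgeR quasi-likelihood test with sex as a covariate, Cidea, Adipoq and Car3 were higher in soleus at an adjusted p under 0.05 and Fabp4 did not pass. Cidec, Plin1 and Cfd were too sparse for the filter on low counts, so 4 of the 7 were tested. Cidea and Adipoq passed that filter only through soleus libraries, since no TA library had more than 3.83 CPM of either, so their place among the tested genes rests on the muscle in which they were higher. With no filter their edgeR adjusted p-values were 5.43e-05 for Cidea and 0.0115 for Adipoq. That fit called 3.83% of all 20009 genes higher in soleus, and the median log2 fold change of all genes was 0.25. It also called 2.24% of genes for sex in soleus, against 0.547% with the filter. Its smaller p-values are therefore not read as stronger evidence. Over all 5115 genes tested, 22.0% were called, 11.0% with the higher level in soleus and 11.0% in TA, so a call in soleus is common in these data. Soleus libraries all lay above all TA libraries for Car3, Cidea, Plin1 and Cfd, and overlapped them for Adipoq, Cidec and Fabp4. Such a separation was seen in 6.24% of the tested genes and in 2.26% of all 20009. Without soleus female 2 the same 3 genes were called, at log2 fold changes of 2.67 for Cidea, 2.37 for Adipoq and 0.87 for Car3.

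**Figure D1:**
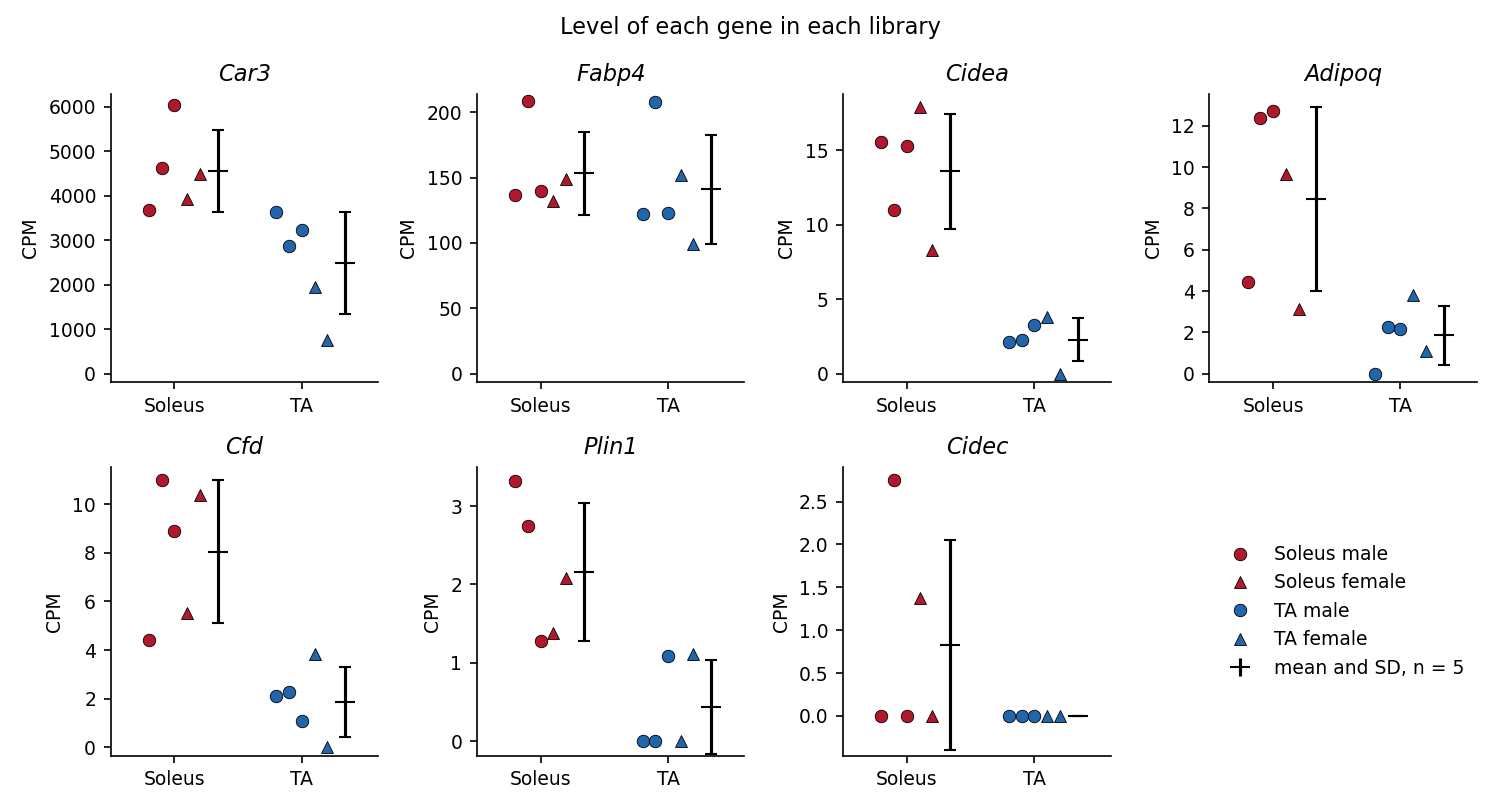
Each panel shows one gene in CPM (counts per 1e6 counts of the library, vertical axis, own scale) in soleus and TA. Points are libraries, circles males and triangles females, and the bar is the mean with its SD (n = 5). Car3 lies between 757 and 6030 CPM, while Cidea, Adipoq, Cfd, Plin1 and Cidec stay under 18 CPM.

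Cidea, the droplet fusion protein of brown fat, had the largest fold change of the 4 genes tested. It had 14, 8 and 12 counts in the soleus of males 1 to 3 and 13 and 8 in that of females 1 and 2. In TA it had 2, 2 and 3 counts in the males and 3 and 0 in the females. The lowest soleus library was above the highest TA library, at 8.32 against 3.83 CPM. TA female 2, with no count, allows up to 3.34 CPM at this depth.

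Cidea averaged 13.6 ± 3.86 CPM in soleus and 2.29 ± 1.46 CPM in TA (SD, n = 5 each). Its log2 fold change, soleus over TA, was 2.52 (SE 0.49), and the edgeR adjusted p was 0.00290. From the summed counts, 55 in soleus and 10 in TA, the ratio of levels was 5.94, with a 95% exact interval of 3.00 to 13.1 that covers counting error only. Cidea was called with each of the 10 libraries left out in turn, at 2.19 to 2.78. It lies at 18:67343604-67367785 and has 1 annotated transcript, and none of its 31-base words is shared with another gene.

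Within a mouse, the Cidea level in soleus was 7.29, 4.86 and 4.71 times that in TA in males 1 to 3 and 4.68 times in female 1, and female 2 had no TA count. In males alone Cidea failed the filter. A fit of the males on the genes of the full filter was added later and called 1063 of 5114 genes. In it the Cidea log2 fold change was 2.33 (edgeR adjusted p = 0.00510). In females alone, also on the genes of the full filter, it was 2.90 and was not called (SE 1.08), with 2 libraries a muscle. Cidea had no sex difference past the threshold within soleus (female over male -0.11, SE 0.57) or within TA (-0.66, SE 0.96).

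Cidec, the CIDE protein of white fat droplets, had 3 counts in soleus, 2 in male 2 and 1 in female 1. It had no count in any TA library. Over all 4432290 TA counts, 0 allows up to 0.677 CPM, and the 3 soleus counts are at the same limit of detection, so no fold change is given. The gene (6:113424634-113435760, minus strand) has 4 transcripts that share most of their sequence. The transcript with the counts has 40 of its 1677 31-base words to itself, so the limit above does not cover reads that were not assigned to a transcript.

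Plin1, which coats the fat cell droplet, had 3, 2 and 1 counts in the soleus of males 1 to 3 and 1 and 2 in that of females 1 and 2. In TA there was 1 count in male 3 and 1 in female 2, and none in the other libraries. The soleus libraries, from 1.27 to 3.32 CPM, lay just above the TA libraries, from 0 to 1.11 CPM, but 1 count is itself 1.04 to 1.38 CPM. The ratio from 9 soleus and 2 TA counts was 4.86, with a 95% exact interval of 1.01 to 46.2. Without a filter on low counts it did not pass (edgeR adjusted p = 0.418). Of 7 Plin1 transcripts (7:79720218-79732903, minus strand), the one of 1916 bases has no 31-base word of its own and no count.

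Adipoq, the adiponectin gene (16:23146536-23158028), had 4, 9 and 10 counts in the soleus of males 1 to 3 and 7 and 3 in that of females 1 and 2. In TA it had 0, 2 and 2 counts in the males and 3 and 1 in the females. The muscles overlapped, since soleus female 2 at 3.12 CPM was below TA female 1 at 3.83 CPM. Within each of the 5 mice soleus was above TA, as it was for Car3, Cidea, Cfd and Plin1. Soleus was above TA in all 5 mice in 13.8% of the tested genes and in 5.87% of all 20009.

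Adipoq averaged 8.45 ± 4.46 CPM in soleus and 1.87 ± 1.43 CPM in TA (SD, n = 5 each). The log2 fold change was 2.09 (SE 0.62, edgeR adjusted p = 0.0301), and the counting ratio was 4.45 (95% exact interval 2.02 to 11.2). The call was lost without soleus female 1 (adjusted p = 0.0797), TA female 2 (0.100), TA male 1 (0.0601), TA male 2 (0.0583) or TA male 3 (0.0590). Without soleus male 2 or male 3, its highest libraries, the gene failed the filter. It thus kept its call in 3 of the 8 fits with 1 library left out in which it was tested, with a fold change between 1.75 and 2.50. In males alone Adipoq failed the filter. In the fit of the males added later on the genes of the full filter, the fold change was 2.54 (edgeR adjusted p = 0.0335). That fit called 1063 of 5114 genes. In females alone, also on the genes of the full filter, it was 1.47 (SE 1.06) and not called.

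Cfd, the adipsin gene (10:79890853-79892655), had 4, 8 and 7 counts in the soleus of males 1 to 3 and 4 and 10 in that of females 1 and 2. In TA it had 2, 2 and 1 counts in the males and 3 and 0 in the females. No library overlapped between the muscles, at 4.43 CPM and above in soleus and 3.83 CPM and below in TA. Cfd averaged 8.05 ± 2.93 CPM in soleus and 1.86 ± 1.43 CPM in TA (SD, n = 5 each). It failed the filter. With no filter its log2 fold change was 2.03 (SE 0.59, edgeR adjusted p = 0.0128), where 3.83% of 20009 genes were called higher in soleus and the median of all genes was 0.25. Its 2 transcripts have only 78 and 27 31-base words of their own.

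**Figure D2:**
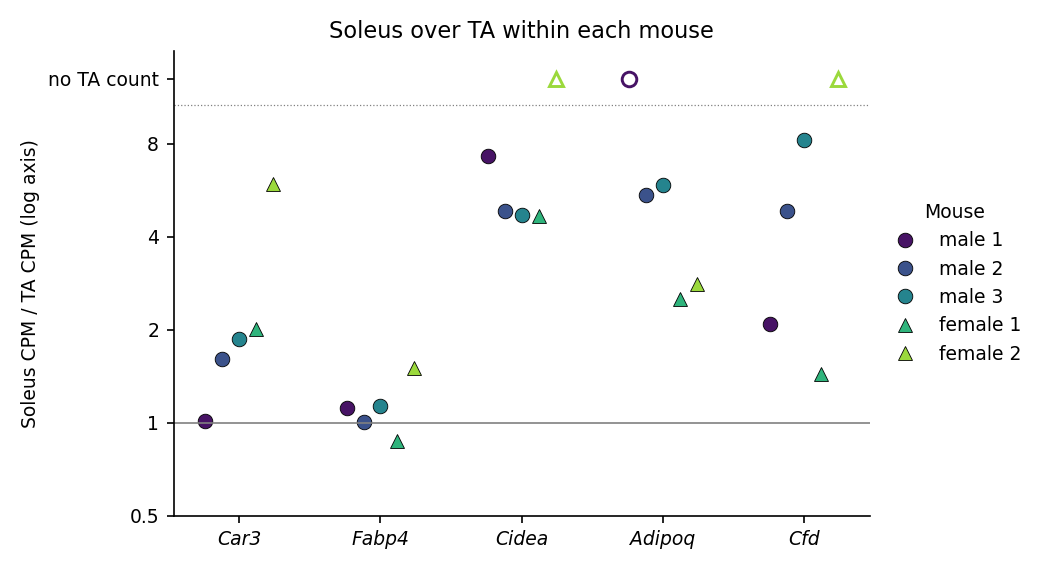
The vertical axis (log scale) is the soleus level divided by the TA level of the same mouse in CPM, and each point is a mouse, circles males and triangles females. Open symbols above the dotted line had no TA count. Cidea lies at 4.68 and above in every mouse with a TA count, Fabp4 lies between 0.871 and 1.14 in all mice but female 2, and Car3 ranges from 1.01 in male 1 to 5.92 in female 2.

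Fabp4, the fatty acid carrier, was the gene of fat cells best measured after Car3, with 624 counts in soleus and 621 in TA. It had 136, 209 and 140 CPM in the soleus of males 1 to 3 and 132 and 149 CPM in that of females 1 and 2. In TA it had 122, 208 and 123 CPM in the males and 152 and 99.1 CPM in the females. Male 2 was the highest in both muscles, and the muscles overlapped throughout.

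Fabp4 averaged 153 ± 31.7 CPM in soleus and 141 ± 41.9 CPM in TA (SD, n = 5 each). Its log2 fold change was 0.15 (SE 0.20) and did not pass (edgeR adjusted p = 0.663). The counting ratio was 1.09, with a 95% exact interval of 0.969 to 1.21. That interval lies below the counting intervals of Cidea, Adipoq and Cfd, which begin at 3.00, 2.02 and 2.02. It overlaps those of Plin1 and Cidec, which begin at 1.01 and 0.446. All of them cover counting error only and leave out the spread between mice, so they do not test a difference between genes. Fabp4 (3:10204088-10208576, minus strand) is not called in any fit with 1 library left out, where the fold change ran from 0.03 to 0.32.

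Car3 had 3669, 4626 and 6030 CPM in the soleus of males 1 to 3 and 3920 and 4483 CPM in that of females 1 and 2. In TA it had 3627, 2879 and 3230 CPM in the males and 1948 and 757 CPM in the females. The muscles did not overlap, but soleus male 1 was at only 1.01 times TA male 1. Within the other mice soleus was 1.61 times TA in male 2, 1.87 times in male 3, 2.01 times in female 1 and 5.92 times in female 2. The coefficient of variation was 20.2% in soleus and 46.2% in TA with all libraries, 23.2% in soleus and 24.5% in TA without female 2, and 24.9% in soleus and 11.5% in TA among males, so which muscle spread more depended on the libraries.

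Car3 averaged 4546 ± 919 CPM in soleus and 2488 ± 1150 CPM in TA (SD, n = 5 each). The log2 fold change was 1.00 (SE 0.30, edgeR adjusted p = 0.0327). TA female 2 weighed on its size. Without that library the fold change was 0.71, and without both libraries of female 2 it was 0.61 (adjusted p = 0.0252). The ratio of summed counts was 1.80 with all libraries and 1.53 without TA female 2. The call was lost without soleus male 3 (adjusted p = 0.0714), TA female 1 (0.0654) or TA male 2 (0.0657), at fold changes of 1.00, 1.01 and 1.01. In males alone the fold change was 0.49 (adjusted p = 0.0711) and in females alone 1.85 (adjusted p = 0.210), and neither was called.

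**Figure D3:**
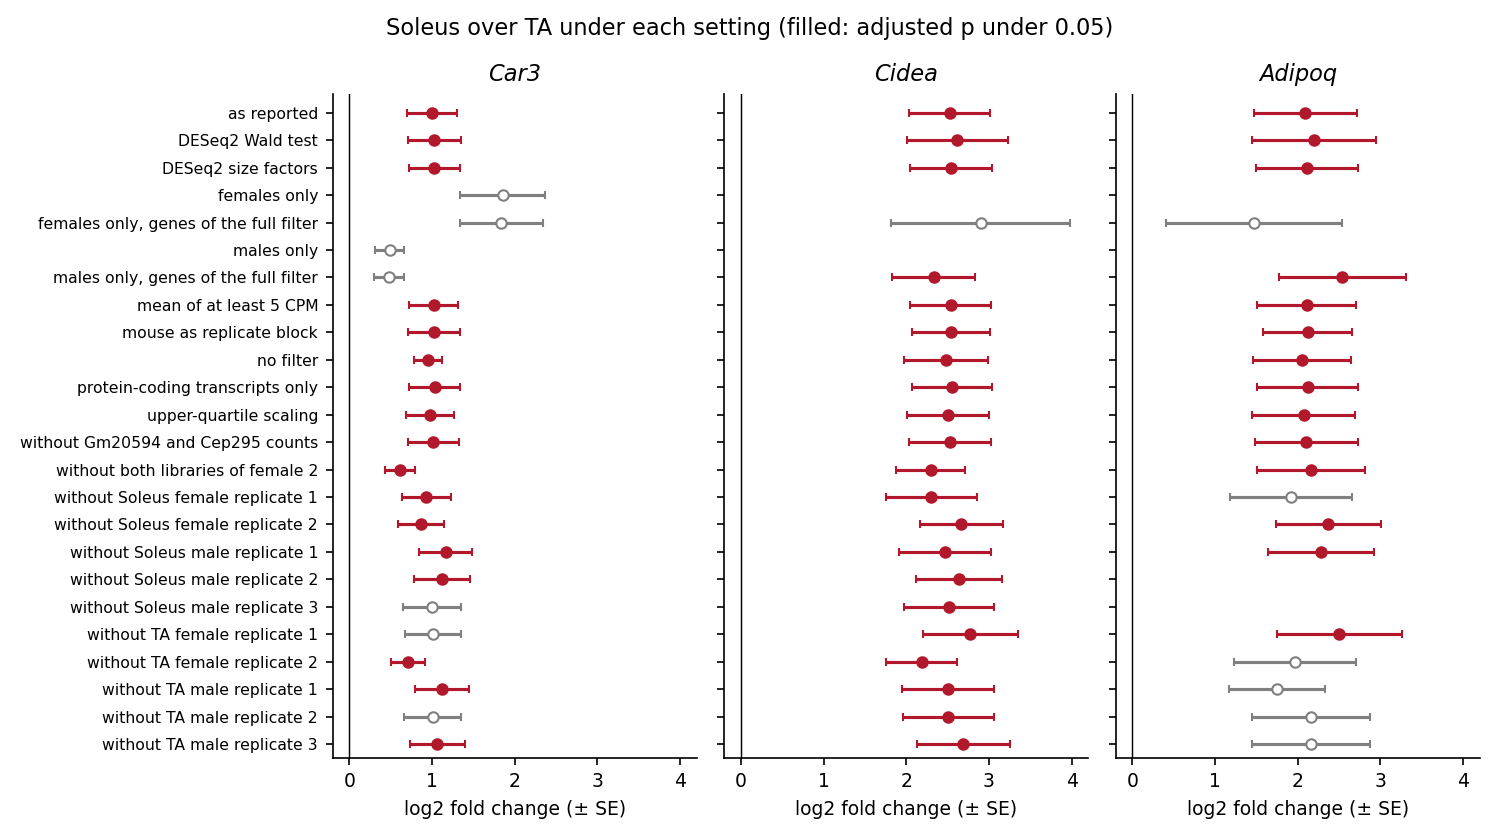
Each line is a setting of the comparison and each panel a gene, with the log2 fold change of soleus over TA on the horizontal axis and its SE as the bar. Filled points have an adjusted p under 0.05, and a gap means that the gene failed the filter. Cidea is filled with each library left out in turn, while Car3 and Adipoq lose their call in 3 and 5 such fits.

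The sexes were then compared within each muscle, with 3 male and 2 female libraries. In TA the Car3 level in both females, 1948 and 757 CPM, was below that in all 3 males, 2879 to 3627 CPM. The share of all genes that separate in this way, with 2 libraries against 3, was not counted, so the order is not read as a result. The Car3 log2 fold change, female over male, was -1.47 (SE 0.36), with an adjusted p of 0.0968 in edgeR's quasi-likelihood test. The call was therefore not made with all libraries. It was made with no filter (edgeR adjusted p = 1.66e-06, where 0.380% of genes were called lower in females). Without soleus female 1 or soleus female 2 the fold change was -1.50 or -1.49. It was -2.33 without TA female 1, where TA female 2 alone stood for the females and was assumed to vary like the other groups. Without TA female 2, where TA female 1 alone stood for them, it was -0.97. Each fit without a female library left 1 library in a group, and the calls of these fits, which differed, are not read.

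In soleus the Car3 levels of the 2 females lay within the range of the 3 males, and the fold change was -0.13 (SE 0.34, edgeR adjusted p = 0.888). The difference between the muscles in the sex effect was 1.35 (SE 0.48), with an edgeR adjusted p of 0.709. With all libraries and the filter, no gene of the 7 was called for sex in soleus, where edgeR called 0.547% of genes, in TA, where it called 0.645%, or for the interaction, where it called 0 of 5115 genes and 351 had an unadjusted p under 0.05. Adipoq, Cidea and Fabp4 had adjusted p-values of 0.598 or more in TA and of 0.725 or more in soleus, and of the 4 tested genes only Car3 had an unadjusted p under 0.05, in TA and for the interaction. With DESeq2 size factors in the same edgeR test the counts of the 7 genes called were also 0.

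Soleus female 2 differed from all other libraries in the share of its Car3 counts on annotated retained-intron transcripts. What material gave rise to these counts was not tested. Of its 4309 Car3 counts 145 were on retained-intron transcripts, 143 of them on the one that runs into intron 2, a share of 3.37% (95% exact interval 2.85 to 3.95). The shares in the other soleus libraries were 0.316% to 0.597% and in TA 0.314% to 1.18%, and no interval of theirs reached 2.85%. The retained stretch is 1103 bases of the 2355-base intron 2 and begins with the capitals of the retained-intron sequence above. Over all genes, retained-intron transcripts held 8.21% of counts in soleus female 2, the highest share, and 4.80% to 7.25% in the other libraries. Counted on protein-coding transcripts only, the Car3 fold change was 1.03 (edgeR adjusted p = 0.0290).

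Fabp4 also has a retained-intron transcript, with 40 of its 1245 counts. Its share was 5.59% in soleus female 2 (8 of 143 counts) and 1.04% to 2.73% in the other soleus libraries, with intervals that overlapped. In TA it was 2.61% to 5.62%.

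**Figure D4:**
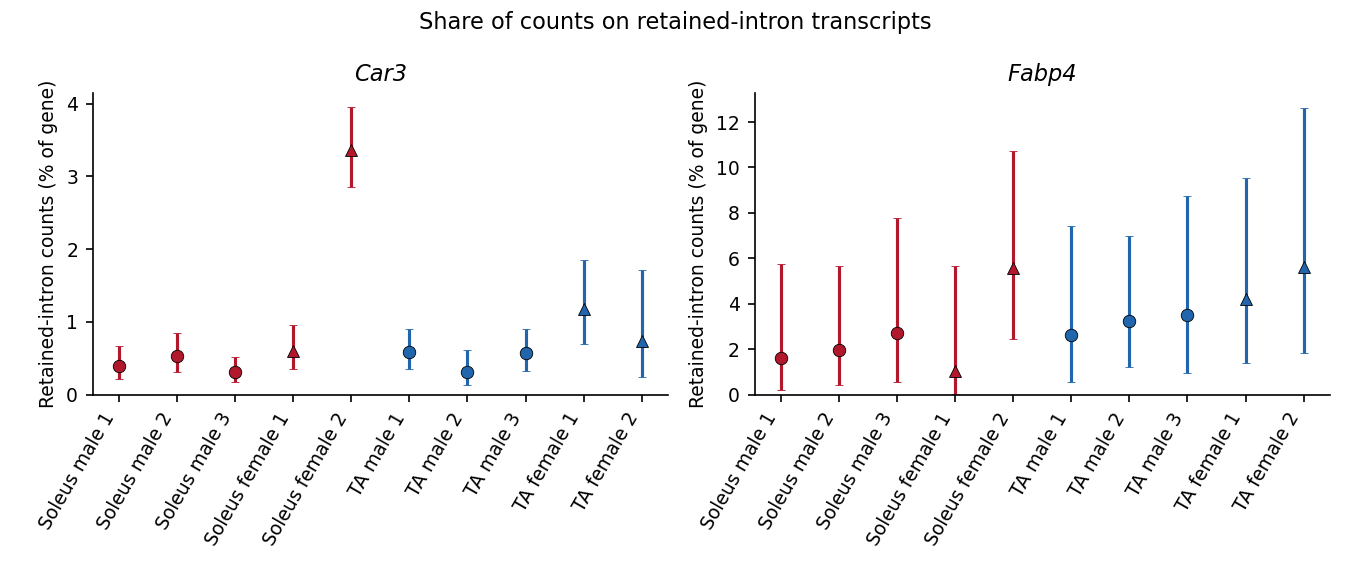
Points are the percentage of a gene's counts on retained-intron transcripts in each library, soleus in red and TA in blue, circles males and triangles females, with 95% exact intervals for counting error. Soleus female 2 stands alone for Car3 at 3.37%, while its Fabp4 interval overlaps those of the other libraries.

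Levels of different genes were compared per kilobase of the counted transcripts. The median level in soleus was 2675 CPM per kilobase for Car3, 139 for Fabp4, 13.7 for Cidea, 9.66 for Cfd, 7.46 for Adipoq, 0.949 for Plin1 and 0 for Cidec. In TA it was 1718 for Car3, 123 for Fabp4, 2.31 for Cfd, 2.03 for Cidea, 1.67 for Adipoq, and 0 for Plin1 and Cidec. The ranges of Cidea, Cfd and Adipoq over libraries overlapped in both muscles. Per kilobase Cidea was above Adipoq in each of the 5 soleus libraries, but in CPM it was below Adipoq in soleus male 2 (11.0 against 12.4). Plin1, at 1.52 CPM per kilobase or less in soleus, lay below the lowest Adipoq library there at 2.42. In CPM they overlapped in soleus, with Plin1 up to 3.32 and Adipoq from 3.12. The soleus medians in CPM were 8.90 for Cfd and 9.64 for Adipoq, the reverse of their order per kilobase. Whether counts rise with transcript length in these libraries was not tested, so these orders depend on the scale. Scaled instead to the 31-base words found in only 1 transcript, the soleus median of Cfd (84.8 CPM per 1e3 words) was above that of Fabp4 (35.2). That scale leaves out words shared by transcripts of the same gene, which are also sequence of the gene. The place of Cfd on it is therefore not read as its level.

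Other genes of fat cells mostly failed the filter or did not pass the test. Of 16 white adipocyte genes 5 were tested. Adipoq rose, and Plin4, Cebpa, Thrsp and Fabp4 did not pass, at fold changes of 0.38, 0.83, 0.31 and 0.15. The median was 0.38, beside 0.01 for all genes tested, and without TA female 2 Adipoq lost its call. Retn, the resistin gene of mouse fat, failed the filter with 14 counts in soleus and 1 in TA, and with no filter its edgeR adjusted p was 0.0273. Leptin (Lep) had 7 counts in soleus and none in TA (adjusted p = 0.155 with no filter). Pparg, the regulator of fat cell formation, had 4 counts in soleus and 5 in TA. Of the remaining untested genes beyond the 7, Lipe had 28 counts in soleus and 31 in TA, and Trarg1 had 15 and 8. Acvr1c had 6 and 2, Pck1 had 5 and 0, and Slc7a10 had no count. With no filter none of those with counts passed the edgeR test. The summed level of the list was 237 to 350 CPM in soleus and 178 to 301 CPM in TA, most of it Fabp4.

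Of 15 brown and beige adipocyte genes 6 were tested and 3 were higher in soleus. These were Cidea, Cpt1b (0.67, edgeR adjusted p = 0.0377), a muscle-type transporter of fatty acids into mitochondria, and Cox8b (0.36, adjusted p = 0.0492), a respiratory chain subunit that muscle also uses. Without soleus female 2, or without TA female 2, Cox8b lost its call and Cidea and Cpt1b were called. Ucp1, which defines the heat-producing brown fat cell, and Cited1 and Otop1 were at 0 in all 10 libraries. Tbx1 had no count in soleus and 10 in TA (edgeR adjusted p = 0.0461 with no filter).

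Droplet and triglyceride genes beyond the 7 were read next. Of 17 genes of the droplet coat and of lipolysis 7 were tested, and Cidea and Plin3, a perilipin found in most tissues (0.74, edgeR adjusted p = 0.00999), rose, while Plin2, Plin4, Fitm1, Fitm2 and G0s2 did not pass. Of 11 genes of triglyceride synthesis and fatty acid uptake 6 were tested and 2 rose. They were Dgat2, which adds the last fatty acid to triglyceride (3.16, adjusted p = 4.23e-06), and Lpl, the lipase that frees fatty acids from lipoproteins (2.16, adjusted p = 2.70e-07). Acsl1, which activates fatty acids, was called in addition without soleus female 2. The medians of these lists were 0.22 and 0.72.

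Among 16 carbonic anhydrases 4 were tested. Car2, the neighbor of Car3 and an enzyme of high activity, was higher in soleus (1.55, edgeR adjusted p = 0.00265), as was Car3, and Car14, a membrane-bound form, was higher in TA (-1.30, adjusted p = 0.0150). Car5b, a mitochondrial form, did not pass (1.10, adjusted p = 0.0707). Car1, on the other side of Car3 in the same cluster, was at 0 in every library. Of the 9 fatty acid binding proteins 3 were tested, and Fabp3, the form of heart and slow muscle, rose (2.67, adjusted p = 3.48e-05), while Fabp4 and Fabp5 did not pass.

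Adiponectin and adipsin act through other proteins, which were read in the same way. Of 5 adiponectin receptors and partners 4 were tested, and Cdh13, or T-cadherin, which binds adiponectin, rose (0.91, edgeR adjusted p = 0.0131), while Adipor1, Adipor2 and Appl1 did not pass, at -0.26, -0.36 and -0.33. Of 7 genes of the alternative complement pathway 3 were tested, and Cd55, an inhibitor of complement on cell surfaces, was lower in soleus (-1.66, adjusted p = 0.000772). C3 and Cfp did not pass. Of 10 adipogenic regulators 4 were tested, and Cebpd was lower in soleus (-1.07, adjusted p = 0.00982). Cebpb was called higher in soleus without soleus female 2 and without TA female 2, but not with all libraries (0.53, adjusted p = 0.0947).

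**Figure D5:**
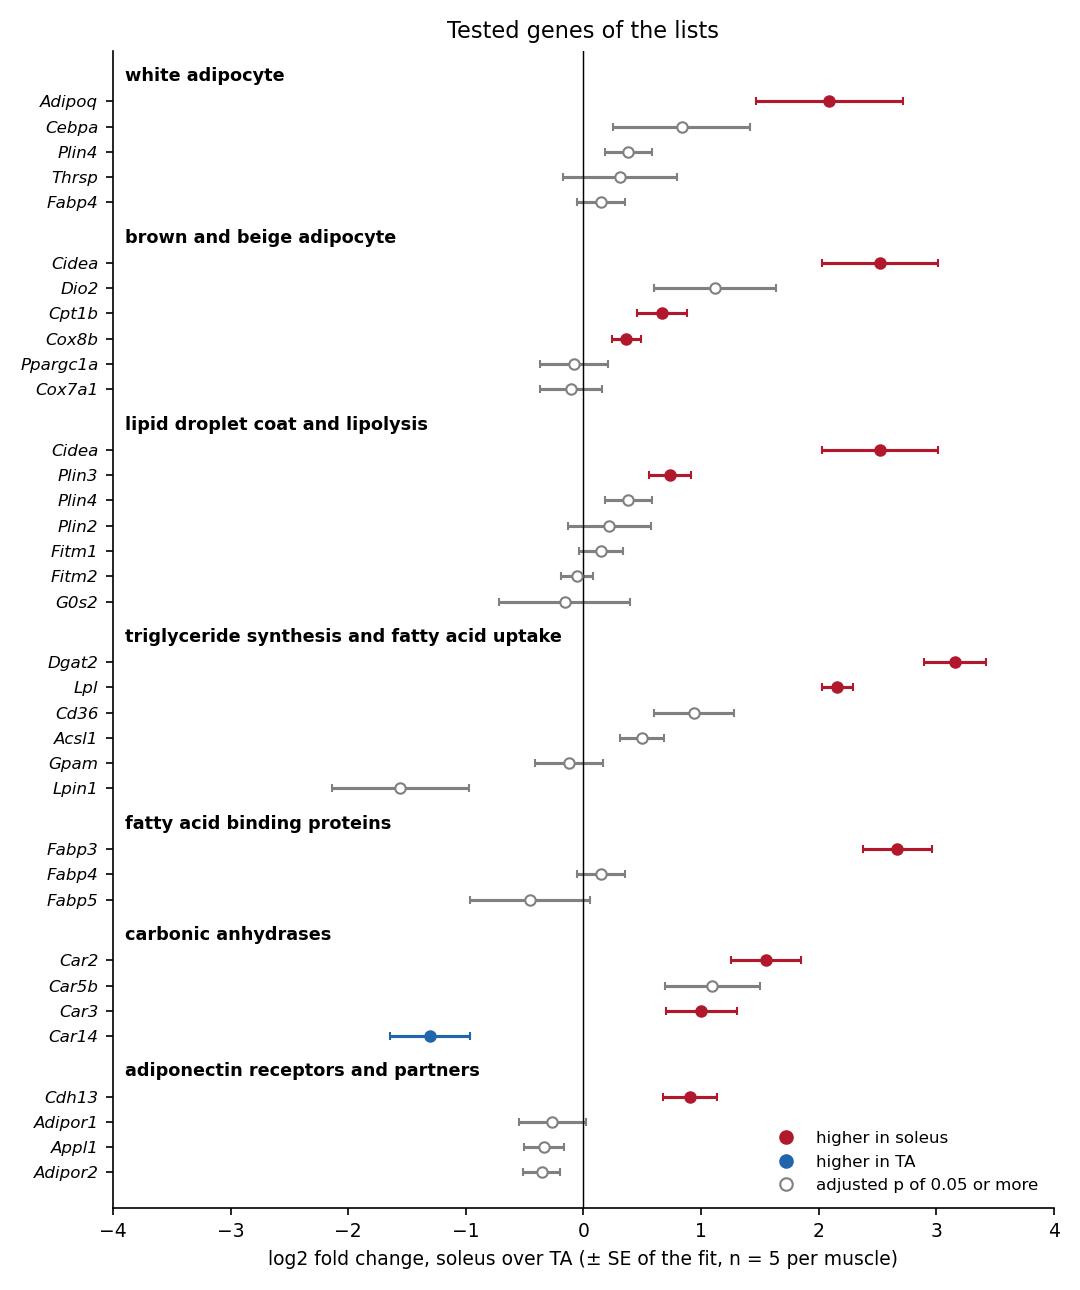
The horizontal axis is the log2 fold change of soleus over TA for each tested gene of 7 lists, with the SE of the fit (n = 5 per muscle). Red points are higher in soleus and blue points higher in TA at an adjusted p under 0.05, and open points did not pass. Dgat2, Fabp3 and Cidea lie farthest to the right, and Car14 is the blue point.

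Markers of other cells in the same libraries moved in part. Endothelial genes, read because capillary endothelium also makes Fabp4, were higher in TA for 3 of 4 tested (Cdh5, Kdr and Flt1). Cldn5 did not pass. Of those that failed the filter, Pecam1 and Tie1 had 20 and 9 counts in soleus and 19 and 5 in TA. Tek and Emcn had 2 and 5 counts in soleus and 4 and 8 in TA. The summed level of the 8 genes, of which Cdh5 had the most counts, was 280 to 346 CPM in soleus and 430 to 903 CPM in TA. Of 6 tenocyte genes tested 2 were higher in soleus (Comp and Chad) and 5 without soleus female 2, with sums of 255 to 1109 CPM in soleus and 146 to 774 CPM in TA. By edgeR 0 of 5 tested macrophage genes were called, and 0 had an unadjusted p under 0.05. Of 5 fibro-adipogenic genes tested Cd34 was higher in soleus and Smoc2 in TA. The skin gene Dsp was called in soleus, with 49 counts and none in TA, and Krt14 was at 0 in every library. Their part in the results for the 7 genes was not tested.

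The genes most like Car3 across the 10 libraries were Oxct1 (Pearson r of log2 CPM 0.94), Sptbn1 (0.90), Stim1 (0.90), Ndufv3 (0.89) and Actn2 (0.89), among 4208 genes averaging 10 CPM or more. With the mean of each muscle removed they were Mettl21c (0.97), Atp5c1 (0.96), Oxct1 (0.89), Stim1 (0.88) and mt-Co2 (0.86). For Cidea they were Fabp3 (0.96), P2rx5 (0.96), Lrrn1 (0.95), Ube2g2 (0.95) and Ppp1r12b (0.95), and with the muscle means removed Tbc1d1 (0.91), Timm29 (0.90), Plxna1 (0.89), Pde4a (0.89) and Ndufb7 (0.88). For Adipoq they were Micu2 (0.98), Rassf3 (0.96), Hdac9 (0.95), Degs1 (0.95) and Eif3d (0.94), and with the muscle means removed Micu2 (0.97), Borcs6 (0.91), Med9 (0.90), Cyb5b (0.90) and Rassf3 (0.90). Of the 7 genes only Car3 and Fabp4 averaged 10 CPM or more and could be listed, and neither was among these. Cidea, Adipoq, Cfd, Plin1 and Cidec could not appear, so their absence says nothing. With the muscle means removed, Car3 had an r of 0.42 with Fabp4, 0.58 with Cidea, 0.07 with Adipoq, 0.56 with Cfd, -0.45 with Plin1 and -0.04 with Cidec. These values describe 10 libraries that share their depth, and at 0 to 14 counts a library those of Cidea, Adipoq, Cfd, Plin1 and Cidec carry little weight.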

How the data were processed

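Tag-Seq libraries were made with a stranded kit from 10 ng of total RNA of muscle, per the labels' protocols. Per the submitters' processing notes, reads were handled with bcl2fastq, Trimmomatic 0.32 and FastQC on GRCm38.p4, and the aligner and the counting tool are not given in the sources used here. The authors deposited whole-number counts per transcript, not normalized, that list only transcripts with at least 1 count.

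Counts of transcripts found in GENCODE M21 by identifier, without version (40359 of 40414), were summed to genes. CPM is the count scaled to 1e6 matched counts of a library. Genes were filtered with filterByExpr over the 4 groups of muscle and sex, scaled by TMM and tested with edgeR 4.0.16 (R 4.3.3, quasi-likelihood, sex as a covariate, or 4 group means for sex and interaction), with Benjamini-Hochberg adjustment over all genes tested and a threshold of 0.05. DESeq2 1.42.0 was an alternative, as were other scalings and filters, protein-coding transcripts only, each library left out, 1 sex only and the mouse as a block. The fits were tested on simulated data. Intervals are 95% exact, and 0 counts allow 3. Both cover counting error only. Tables were handled in Python 3.11.15 (numpy 2.4.6, pandas 2.3.3), intervals in scipy 1.17.1 and figures in matplotlib 3.10.9.

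Soleus and TA libraries of 1 number carry the same animal code in the deposited names. After removal of group means they correlated across genes with r of 0.183 to 0.238 in the male pairs and 0.285 in the female pairs, which share 1 value by construction. Libraries of different numbers were not compared, so these values do not test the pairing. The numbers were read as pairs because of the animal code.

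The 7 genes, the gene lists and the tests were chosen with earlier results of these data known. All 7 genes are named. The 5 genes most like Car3, Adipoq and Cidea by Pearson r of log2 CPM (prior count of 2) are named among those averaging 10 CPM or more, without gene models, clones and pseudogenes. Of each list the counts and up to 4 genes with the smallest p are named, and list genes named beyond that, such as Retn, Lep, Pparg, Ucp1, Tbx1 and Car1, were chosen after their values were seen.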

Additional observations from a re-analysis of the deposited data

Results flagged for a closer look

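In each muscle the value farthest from the other libraries was set against Dixon's 95% limit for 5 samples. The test covered 20 groups of 5 libraries (the 7 levels, the retained-intron shares of Car3 and Fabp4, and the number of transcripts listed, in soleus and in TA), and chance alone marks about 1 in 20. In 3 of the 20 a library lay past the limit.

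The Fabp4 level of soleus male 2, at 209 CPM, lay apart from the other soleus libraries at 132 to 149 CPM. The TA library of the same male was also the highest of its muscle, at 208 CPM, and did not lie past the limit.

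The Car3 retained-intron share of soleus female 2, at 3.37%, lay apart from the other soleus libraries at 0.316% to 0.597%. The same library listed 22827 transcripts, apart from the other soleus libraries at 14971 to 16539.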

How the results depend on the processing

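The 3 calls in soleus over TA (Cidea, Adipoq and Car3) were kept with DESeq2's Wald test, DESeq2 size factors, upper-quartile scaling, a mean of at least 5 CPM, no filter, protein-coding transcripts only, library sizes without Gm20594 and Cep295, and without both libraries of female 2 (chosen after seeing the data). With the mouse as replicate block, 1207 genes and the same 3 were called, Car3 at 1.03 (adjusted p = 0.0368), the interaction called 0 genes, and no tested gene of the 7 changed its call in either comparison. With 1 library left out, 892 to 1353 genes were called, and 1 to 3 of the 7. Females only gave 19 genes (22 on the genes of the full filter, added later) and 0 of the 7 in both, and males only 0 of the 7, where Cidea and Adipoq failed the filter. On the genes of the full filter, also added later, males only gave 1063 genes and 2 of the 7, Cidea and Adipoq. For females only the adjusted p of Car3 was 0.210. Genes called for sex with 1 library left out ran from 1 to 1022 in soleus and from 1 to 162 in TA, with 0 to 1 of the 7 in TA, and for the interaction from 0 to 79. The highest counts came without soleus female 1, where soleus female 2 alone stood for the females of that muscle and was assumed to vary like the other groups. With no filter they were 449 in soleus, 240 in TA (1 of the 7, Car3) and 58. The number of genes past the filter moved too, from 5042 to 6194 with 1 library left out.

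Signs turned in values that had not passed. With 1 library left out, female over male ran in TA from -0.55 to 1.09 for Adipoq and from -4.29 to 0.34 for Cidea, and in soleus from -0.34 to 0.047 for Car3, from -0.70 to 0.29 for Cidea and from -0.34 to 0.058 for Fabp4. The Cidea interaction ran from -0.47 to 4.13. The extremes of Cidea, without TA female 1, rest on TA female 2 with no count. Fabp4, soleus over TA, was -0.026 without both libraries of female 2. The cause was not tested. Depth limits Cidec, Plin1, Cfd, Adipoq and Cidea, at 0 to 14 counts a library, so that a difference in Plin1 or Cidec was not detectable. For Cidec, Cfd and Plin1 the little sequence that some transcripts have to themselves may limit the counts too.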
